A study of Homo sapiens with 9 samples.

Results

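LRP1B, FHIT, WWOX, IMMP2L, MACROD2, DMD, NBEA, EXOC4 and MAGI2 are human protein coding genes with very long introns, most of them located at common fragile sites. They were chosen by name, and all 9 were found in both deposited tables, which together list 51274 genes. None had to be left out for low expression, since the mean normalised read count (baseMean, the mean over the 6 libraries of a comparison) ran from 2130 for DMD to 57915 for WWOX in the PABPN table. In the PABPC table it ran from 1488 for DMD to 26142 for WWOX. A minimum of 50 was required for a test, and 15526 genes passed it in the PABPN comparison and 14843 in the PABPC comparison.

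The RNAs came from HEK293T cells, an established line of human embryonic kidney origin, which were wildtype and crosslinked with 0.1% formaldehyde for 10 min in all groups. RNA immunoprecipitation (RIP) was carried out with an antibody against PABPN, the poly(A) binding protein of the nucleus, or PABPC, its cytoplasmic counterpart, and 3 PABPN RIP, 3 PABPC RIP and 3 Input RNA libraries were sequenced after removal of ribosomal RNA. Each replicate was a single lysate divided between the antibodies, so both comparisons share the same Input RNA libraries. The question was which RNAs associate with each protein relative to total RNA. Reads counted on listed genes, which are fewer than the reads sequenced, were estimated at 36.5 to 52.2 M per library.

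Common fragile sites are chromosomal regions that break preferentially when DNA replication is slowed, and many coincide with very large genes, in which transcription can run into replication. Nearly the whole length of such a gene is intron, which is transcribed, removed by splicing and degraded in the nucleus, while the spliced and polyadenylated mRNA is exported. PABPN binds newly made poly(A) tails in the nucleus and PABPC binds the tails of mRNAs in the cytoplasm. The deposited tables pool intronic with exonic reads of a gene, so the values of these genes describe unspliced and spliced RNA at the same time.

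The gene bodies were taken from GENCODE release 44 on hg38. DMD (X:31097677-33339609, minus strand) was the longest with 2242 kb, followed by MACROD2 (20:13995369-16053197, plus strand) with 2058 kb, LRP1B (2:140231423-142131016, minus strand) with 1900 kb, FHIT (3:59747277-61251459, minus strand) with 1504 kb, MAGI2 (7:78017055-79453667, minus strand) with 1437 kb and WWOX (16:78099400-79212667, plus strand) with 1113 kb. IMMP2L (7:110662644-111562517, minus strand) with 900 kb, EXOC4 (7:133253073-134066589, plus strand) with 814 kb and NBEA (13:34942270-35673022, plus strand) with 731 kb were shorter than 1 Mb, so the name megabase-scale was met by span in 6 of the 9. The deposited exonic length covered between 0.437% of the span in WWOX and 2.20% in MAGI2.

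The genes differed in how the sequence was divided. LRP1B had 91 exons in its canonical transcript, DMD 79 and NBEA 59, whereas WWOX had 9 and IMMP2L 6. The longest intron of WWOX measured 779 kb, 70.0% of the gene, and that of IMMP2L 524 kb, 58.2% of the gene. NBEA had the shortest longest intron of the set with 97.8 kb.

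**Figure D1:**
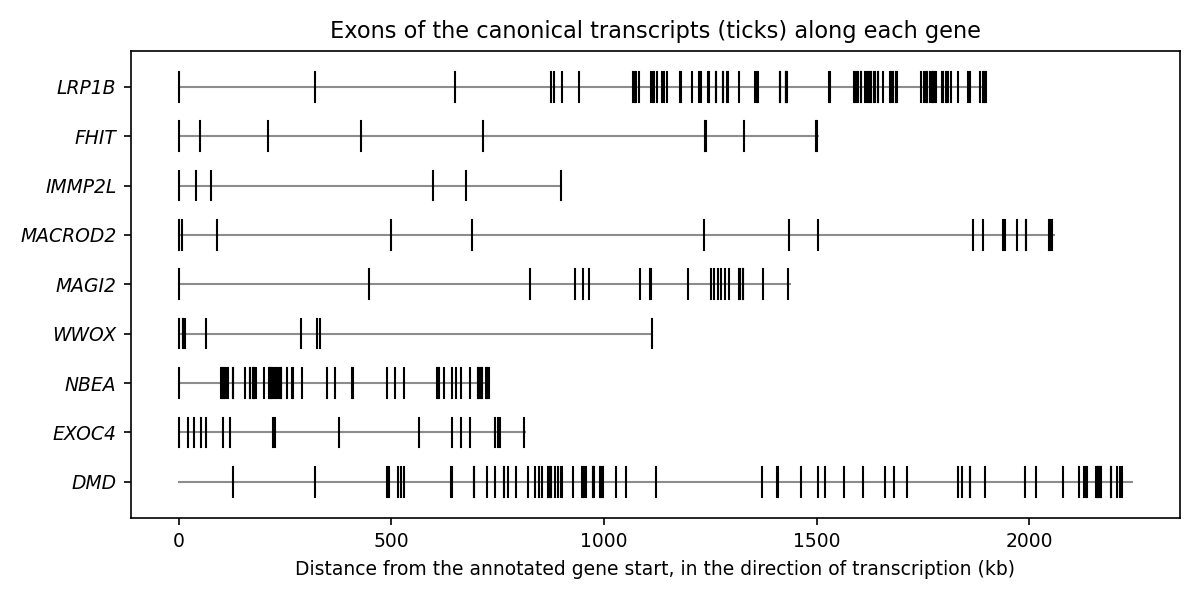
Exons of the canonical transcript (ticks, not to width) along each gene, with the distance from the annotated gene start in kb on the horizontal axis and the genes ordered by their PABPC fold change, lowest at the top. Ticks are sparse in FHIT, IMMP2L and WWOX and many in LRP1B, NBEA and DMD, whose gene lines reach 1900, 731 and 2242 kb.

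Since both proteins bind poly(A), the polyadenylation signals near the annotated 3' ends of the transcripts are shown. The last 50 bases of each canonical transcript were searched for the hexamers AATAAA and ATTAAA on the transcribed strand. The 30-base windows below carry the hexamer in capitals and were read from GENCODE release 44 transcripts on hg38:
FHIT: gattgcgagtccATTAAAcctcattccttt
WWOX: catcctatgcttAATAAAagaacatgcttg
IMMP2L: tatggataatggAATAAAttccctgcatct
MACROD2: gagcagaatacaAATAAAatttgtttgaga
DMD: actgtgtatctcAATAAAgcacgcagttat
NBEA: caaaaaaagaaaAATAAAatatgcaaagaa
EXOC4: gaaaaatggagaATTAAAaagtgttttgag
MAGI2: aaaacactgtcaAATAAAatatatatccaa
They lie in the last exon at 3:59747285-59747314 (FHIT, minus strand), 16:79212631-79212660 (WWOX, plus), 7:110662646-110662675 (IMMP2L, minus), 20:16053155-16053184 (MACROD2, plus), X:31119233-31119262 (DMD, minus), 13:35672703-35672732 (NBEA, plus), 7:134065723-134065752 (EXOC4, plus) and 7:78017079-78017108 (MAGI2, minus). AATAAA was found in 6 of the genes and ATTAAA in 2, and neither was in the window of LRP1B. Over 12450 protein coding genes, 66.8% of canonical transcripts held AATAAA in this window, 19.8% held ATTAAA and 82.1% held at least 1 of them. Of the ATTAAA genes, FHIT had a PABPC log2 fold change over input of -4.78 and EXOC4 of -2.57. LRP1B, without either hexamer in this window, was at -5.22, and the AATAAA genes ran from -4.52 for IMMP2L to -0.91 for DMD. Whether the hexamer goes with the PABPC value was not tested.

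With PABPN the genes stayed close to their share of total RNA. None of the 9 was called enriched and none depleted (adjusted p of at most 0.01 from the authors' DESeq2 fit with a log2 fold change beyond 0.5), against 17.5% and 14.6% of all genes tested. The log2 fold change was below 0 in 8 of the 9 and ran from -0.40 for NBEA to 0.049 for WWOX, with a median of -0.22. An unadjusted p under 0.05 was found for 5 genes, and an adjusted p of at most 0.01 for 2, NBEA and EXOC4, whose changes lay within 0.5. The median over all genes was -0.041 and over protein coding genes -0.087. Fold changes are relative to the total RNA of each library, so they give no absolute amount of bound RNA.

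With PABPC every gene of the set was depleted. All 9 passed the cut-offs, against 32.4% of all genes depleted and 38.4% enriched, and the largest adjusted p among them was 1.15e-13 for DMD. The log2 fold change ran from -5.22 for LRP1B to -0.91 for DMD, with a median of -4.33, while the median over all genes was 0.14. The SD over the 9 genes was 1.36 with PABPC, against a median standard error (SE) of 0.111 for a single gene. With PABPN the SD was 0.131 and the median SE 0.112, so there the genes differed from one another by little more than the error of each.

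**Figure D2:**
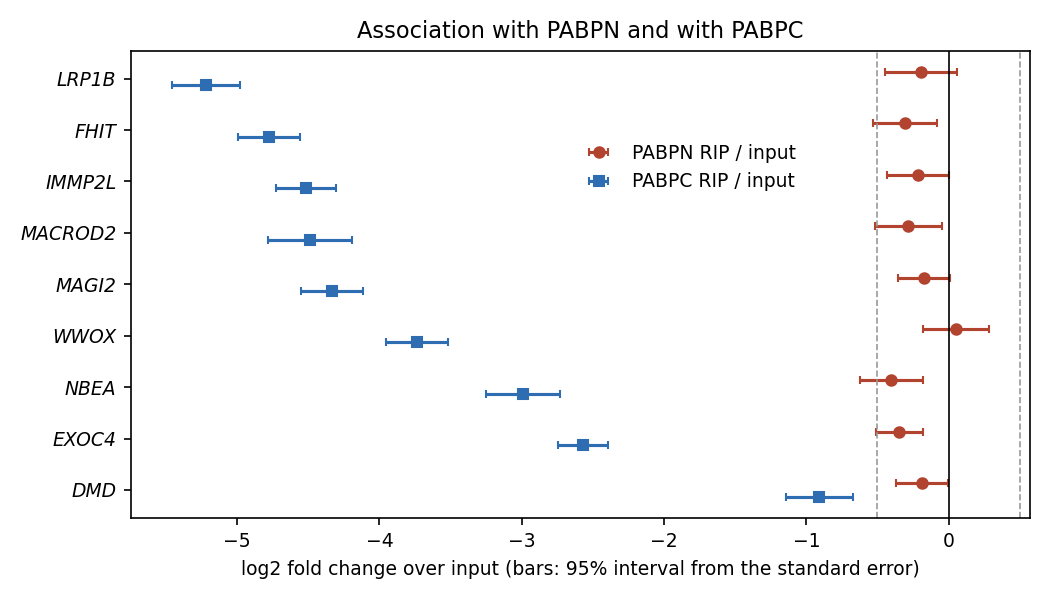
Log2 fold change of each gene over input with PABPN (circles) and PABPC (squares), with bars for the 95% interval from the standard error and dashed lines at -0.5 and 0.5. PABPN values lie between -0.40 and 0.049, and PABPC values between -5.22 (LRP1B, top) and -0.91 (DMD, bottom).

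The levels behind these changes are group means over 3 libraries, worked out from baseMean and fold change, since values of single libraries were not analysed here. FHIT encodes a diadenosine triphosphate hydrolase of the histidine triad family and is regarded as a tumour suppressor. Its mean normalised read count was 54149 in input and 43719 in the PABPN RIP in the PABPN table, and 46274 in input and 1688 in the PABPC RIP in the PABPC table. The PABPC RIP therefore held 3.65% of the input level (95% interval 3.14 to 4.24%) and the PABPN RIP 80.7% (69.1 to 94.4%). FHIT ranked 10th by baseMean among 12799 protein coding genes in the PABPN table.

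WWOX encodes an oxidoreductase with WW domains and is likewise regarded as a tumour suppressor. It had the highest mean normalised read count of the set, at 56922 in input and 58907 in the PABPN RIP, and was 4th among protein coding genes by baseMean. This rank, like that of FHIT, is of counts that hold intronic reads and are not divided by length, so it is not a rank of expression. In the PABPC table it fell from 48635 in input to 3650 in the RIP, 7.50% of input (6.46 to 8.71%). WWOX was the only gene of the set with a PABPN value above 0, at 0.049 (SE 0.119, adjusted p 0.787).

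LRP1B encodes a very large endocytic receptor of the LDL receptor family. Its means were 10107 in input and 8829 in the PABPN RIP, against 8636 in input and 232 in the PABPC RIP. At 2.69% of input (2.28 to 3.17%), a 37.2-fold reduction, it had the lowest PABPC fold change of the 12582 protein coding genes tested. Its PABPN fold change was -0.19 (SE 0.129, adjusted p 0.231).

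IMMP2L encodes a subunit of the peptidase of the inner mitochondrial membrane. It fell 22.9-fold with PABPC, from 19122 to 835 normalised reads, and went from 22372 to 19272 with PABPN, a log2 fold change of -0.22 (SE 0.110, adjusted p 0.105). MACROD2 encodes a hydrolase that removes ADP-ribose from proteins. It fell 22.4-fold with PABPC, from 9537 to 425, and was at -0.28 (SE 0.120, adjusted p 0.0446) with PABPN. MAGI2 encodes a scaffold protein of cell junctions and synapses, and fell 20.2-fold with PABPC, from 7564 to 375, with a PABPN value of -0.17 (SE 0.0928, adjusted p 0.130). IMMP2L, MACROD2 and MAGI2 were at nearly the same level relative to input, between 4.37% and 4.96% with PABPC.

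NBEA and EXOC4, which take part in membrane traffic, were reduced less. NBEA encodes neurobeachin, a BEACH domain protein of synaptic trafficking, and went from 9031 in input to 1135 in the PABPC RIP, 12.6% of input (10.5 to 15.1%). EXOC4 encodes a subunit of the exocyst, which tethers secretory vesicles to the plasma membrane, and went from 22863 to 3854, 16.9% of input (14.9 to 19.1%). Both had the lowest PABPN values of the set, at -0.40 (SE 0.112, adjusted p 0.00132) for NBEA and -0.35 (SE 0.0835, adjusted p 0.000161) for EXOC4.

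DMD, which encodes dystrophin, the link between the cytoskeleton and the muscle cell membrane, stood apart. It was the longest gene of the set and had the lowest mean normalised read count, at 2270 in input and 1991 in the PABPN RIP. In the PABPC table it went from 1942 to 1035, so that 53.3% of the input level (45.3 to 62.7%) was found in the RIP. Its PABPN value of -0.19 (SE 0.0936, adjusted p 0.0932) was close to that of LRP1B. The tables give a single value per gene and do not separate isoforms.

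**Figure D3:**
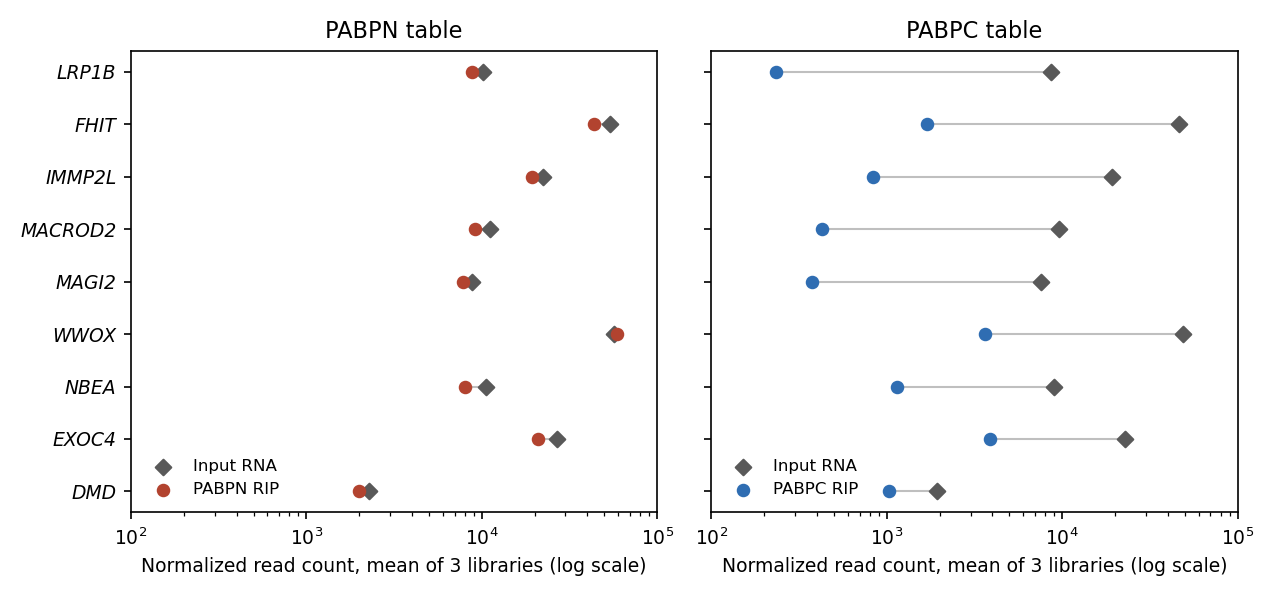
Mean normalised read count of each gene in input (diamonds) and RIP (circles) on a log axis, for the PABPN table (left) and the PABPC table (right), each mean being over 3 libraries and without error bars because single libraries were not analysed. Lines join input and RIP, which lie near each other with PABPN and far apart with PABPC for all genes but DMD (1942 against 1035).

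Read counts grow with length and here pool intronic with exonic reads. Counts per kb of exonic length or of span are therefore given as a description and are not expression levels comparable between genes. Input reads per kb of deposited exonic length in the PABPC table ran from 103 for DMD and 239 for MAGI2 to 6193 for FHIT and 9989 for WWOX. Per kb of gene span they ran from 0.866 for DMD to 43.7 for WWOX. In the PABPC RIP, reads per exonic kb were lowest for MAGI2 (11.9) and LRP1B (14.2) and highest for WWOX (750), with DMD at 54.7. The 9 genes together took 0.425% of all input reads, 0.412% of PABPN RIP reads and 0.0284% of PABPC RIP reads.

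The order of the genes was set against the error of each. With PABPC, LRP1B was lower than FHIT, the next in order, by 0.44 on the log2 scale (95% interval 0.12 to 0.76). FHIT, IMMP2L, MACROD2 and MAGI2 followed, and no neighbours among these differed beyond their intervals, with gaps of 0.26 (-0.042 to 0.56), 0.029 (-0.33 to 0.39) and 0.15 (-0.21 to 0.52). From MAGI2 onwards each step exceeded its interval, with gaps of 0.60 to WWOX, 0.74 from WWOX to NBEA, 0.42 from NBEA to EXOC4 and 1.66 from EXOC4 to DMD. With PABPN no step between neighbours did so, although the ends of the order, NBEA and WWOX, were 0.45 apart (0.13 to 0.77). These errors treat the genes as independent, although they were measured in the same libraries.

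Both comparisons were then set against each other directly. The PABPN minus PABPC difference of the log2 fold changes passed the cut-offs in all 9 genes, each higher with PABPN, against 36.1% of all 14581 genes higher with PABPN and 33.4% higher with PABPC (two-sided normal test, adjusted p of at most 0.01, difference beyond 0.5). It was 5.02 (error 0.177) for LRP1B, 4.47 (0.159) for FHIT, 4.30 (0.154) for IMMP2L, 4.21 (0.191) for MACROD2, 4.16 (0.145) for MAGI2 and 3.79 (0.162) for WWOX. It was smaller for NBEA at 2.59 (0.174), for EXOC4 at 2.22 (0.123) and for DMD at 0.72 (0.152, adjusted p 4.12e-06). A difference of 4.30, as in IMMP2L, is a 19.7-fold higher ratio to input in the PABPN RIP than in the PABPC RIP. The median over all genes was 0.068 and over protein coding genes -0.12.

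The span of a gene went with the PABPC fold change over all protein coding genes. Among 12450 genes the Spearman correlation of gene span with the log2 fold change was -0.769 with PABPC and -0.135 with PABPN, given as a description, since genes measured in the same libraries are not independent. With exonic length it was -0.478 for PABPC and 0.0861 for PABPN. The median PABPC fold change was 1.54 in the 2022 genes under 10 kb, 0.0011 in the 4226 genes of 30 to 100 kb, -2.48 in the 575 genes of 300 to 1000 kb and -3.64 in the 50 genes of 1000 kb or more. The PABPN medians of the same classes were -0.041, -0.068, -0.28 and -0.21.

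Within these classes the genes of the set took different places. LRP1B was 1st from the low end of the 50 genes of 1000 kb or more with PABPC, FHIT 3rd, MACROD2 8th, MAGI2 10th and WWOX 21st, whereas DMD was 47th. The gap to the class median was 2.73 for DMD and -1.58 for LRP1B. IMMP2L was 7th from the low end of the 575 genes of 300 to 1000 kb, with a gap of -2.04 to their median, while NBEA was 172nd and EXOC4 263rd, the latter with a gap of -0.092. Among the 9 genes alone, span and PABPC fold change had a Spearman correlation of -0.2, and of -0.714 over the 8 genes other than DMD, which was left out after its value had been seen. The longest intron went the other way, from -0.45 over the 9 genes to -0.286 without DMD. For the exonic share of the span the values were 0.283 and 0.333, and for the mRNA share 0.283 and 0.214.

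**Figure D4:**
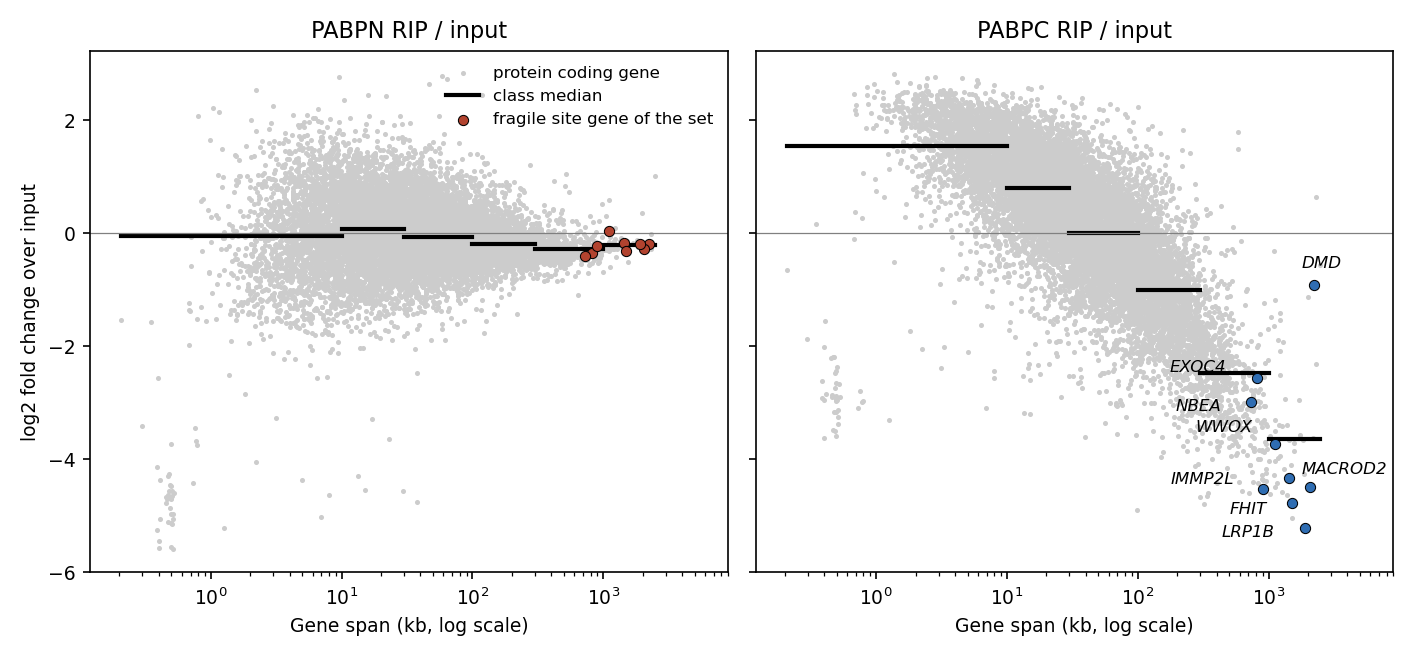
Log2 fold change over input against gene span in kb (log axis) for 12450 protein coding genes (grey), with the median of each span class (black lines) and the 9 genes (coloured), for PABPN (left) and PABPC (right). The PABPC medians go from 1.54 to -3.64 with rising span and the PABPN medians stay between -0.28 and 0.070, while DMD lies far above its PABPC class.

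The relation to span was also seen within broad groups of exonic length. Exonic length was not held constant in them, since it ran from 207 to 4113 bases in the shortest group and from 6946 to 118976 in the longest. When the 12450 genes were divided into equal groups by exonic length, the Spearman correlation of span with the PABPC fold change was -0.654, -0.685 and -0.773 from the shortest to the longest group. IMMP2L was among 13 genes of 500 kb or more in the shortest group, whose median was -3.68, and WWOX among 37 in the middle group, whose median was -3.44. The other 7 genes were among 191 in the longest group, whose median was -3.01. In the same groups the genes under 100 kb had medians of 1.06, 0.51 and 0.12.

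Other genes of fragile sites and other very large genes were examined from a list drawn up by name. Of 29 such genes, 27 had enough reads in the PABPN comparison and 26 in the PABPC comparison. CDH13 was among those too low in both, and IL1RAPL1 was too low in the PABPC table. With PABPC 25 of 26 were depleted and 1 was enriched, with a median of -3.71, against 32.4% and 38.4% of all genes tested. RAD51B, a recombination protein gene, was at -4.36 (SE 0.117), and RORA, which encodes a nuclear receptor, at -4.23 (SE 0.102). The exception was CNTNAP2, a neuronal adhesion protein gene of 2305 kb, at 0.65 (SE 0.114).

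With PABPN, 1 of the 27 genes was depleted and none enriched in the authors' DESeq2 fit, against 14.6% and 17.5% of all genes. The depleted gene was DAB1, an adaptor of reelin signalling, at -0.51 (SE 0.100), just past the cut-off. Their median was -0.27, next to -0.22 for the 9 genes. The difference was higher with PABPN in 25 of 26 genes and higher with PABPC in CNTNAP2, with a median of 3.37. Over all genes these shares were 36.1% and 33.4%.

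All protein coding genes of 500 kb or more were counted in the same way. Of 241 such genes, the 9 included, 232 (96.3%) were depleted and 3 enriched with PABPC (median -3.13), against 32.4% and 38.4% of all genes. With PABPN 19 (7.88%) were depleted and 5 enriched (median -0.28), against 14.6% and 17.5%. Of the 50 genes of 1000 kb or more, 47 were depleted with PABPC. When the 9 genes and the other listed fragile site genes were taken out, 27 of the remaining 29 were depleted, with a median of -3.31. Depletion with PABPC was thus found in most very large genes on and off the fragile site lists, and whether the 9 genes differ from others of like span was not tested.

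Genes related to the 9 by family or by protein complex are mostly much shorter, and 36 of these were listed. With PABPC 21 (58.3%) were depleted and 7 enriched, with a median of -0.80, against 32.4% and 38.4% of all genes tested. With PABPN 5 (13.9%) were depleted and 4 enriched, with a median of -0.15, against 14.6% and 17.5% of all genes. The PABPN minus PABPC difference was higher with PABPN in 21 and higher with PABPC in 7, against 36.1% and 33.4% of all genes. Set against its own relative in the set, the PABPC fold change of the partner was higher in 31 of 36 pairs and lower in 3. In 2 pairs the 95% interval of the gap held 0. LRP1B, FHIT, IMMP2L, MACROD2 and MAGI2 ranked 1st, 5th, 14th, 17th and 26th from the low end of 12582 protein coding genes. Nearly any partner would therefore lie above them, so these pairs say little about the families. The pairs also reuse the same few genes of the set and are not 36 separate observations. With PABPN the partner was higher in 11 pairs and lower in 4, and 21 intervals held 0.

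The widest gap was in the histidine triad family of FHIT. HINT1, a nucleotide hydrolase of the same family, spans 69.1 kb and was enriched with PABPC at 2.19 (SE 0.109), above FHIT by 6.97 (6.67 to 7.27). HINT2 at 2.17 (SE 0.194) and HINT3 at 1.58 (SE 0.0942) were enriched as well. IMMP1L, the partner of IMMP2L in the same peptidase, spans 77.2 kb and was at -1.31 (SE 0.102), above IMMP2L by 3.21 (2.92 to 3.50). MACROD1, also a hydrolase of ADP-ribose, spans 167.6 kb and was at -0.66 (SE 0.118) with PABPC and enriched with PABPN at 0.86.

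In the LDL receptor family every partner was above LRP1B, by 3.72 (LRP2) to 5.05 (VLDLR). This direction was fixed in advance, since LRP1B had the lowest PABPC value of all protein coding genes tested. LRP1, the closest relative, spans 84.9 kb, was at -0.89 (SE 0.222) with PABPC and was depleted with PABPN at -0.85. The junction scaffolds MAGI1, of 685.4 kb, and MAGI3, of 295.4 kb, were at -3.10 (SE 0.0960) and -2.29 (SE 0.149), above MAGI2 by 1.23 (0.94 to 1.52) and 2.04 (1.68 to 2.41). LRBA, the nearest relative of NBEA, is of similar span (751.3 kb) and was at -2.48 (SE 0.0904), 0.51 above NBEA (0.19 to 0.83).

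The subunits of the exocyst covered a wide range of spans. EXOC8, of 5.10 kb, was at 0.75 (SE 0.186) and EXOC7, of 40.6 kb, at 0.84 (SE 0.122), both enriched with PABPC and with PABPN. EXOC3, of 28.8 kb, was at -0.0058 (SE 0.0956), and EXOC1, of 51.4 kb, at -0.81 (SE 0.105). EXOC6B, of 650.1 kb, was at -2.33 (SE 0.121), and its gap to EXOC4 of 0.24 (-0.057 to 0.54) was within the interval. The other exocyst subunits tested, 7 of 8, were above EXOC4 beyond their intervals.

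DMD was again the exception. UTRN, which encodes utrophin, the closest relative of dystrophin, spans 567.7 kb and was at -2.16 (SE 0.0946) with PABPC, a gap of -1.26 from DMD (-1.55 to -0.96). The dystrobrevin genes DTNA, of 398.6 kb, at -2.71 (SE 0.101) and DTNB, of 296.4 kb, at -2.09 (SE 0.105) were also lower than DMD. SGCE, a sarcoglycan gene, was at -1.09 (SE 0.0983), a gap of -0.18 from DMD (-0.48 to 0.12). The dystroglycan gene DAG1 at 0.50, SGCB at 1.36 and the syntrophin gene SNTB2 at 0.34 were higher.

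**Figure D5:**
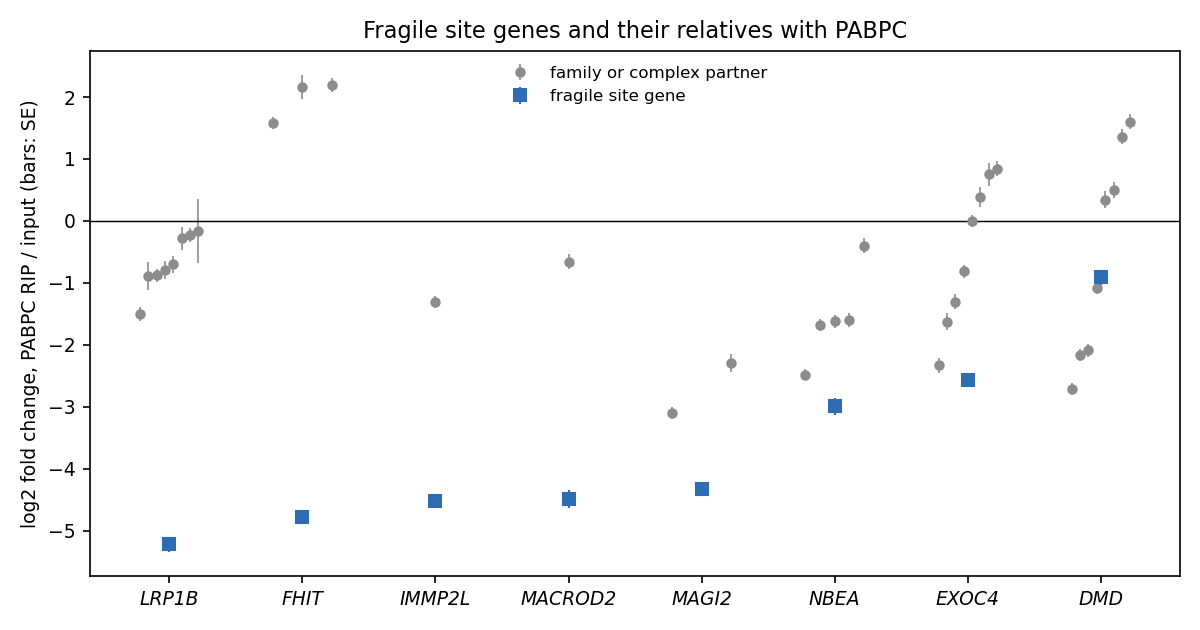
Log2 fold change with PABPC over input, with bars for the standard error, of 8 of the genes (squares) and of their 36 family or complex partners (circles), grouped by gene; WWOX had no listed partner. Partners lie above their relative except for UTRN, DTNA, DTNB and SGCE, partners of DMD, and the widest gap is that of FHIT to HINT1 at 2.19.

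Genes lying inside the 9 genes were examined next. GENCODE release 44 places 40 genes inside them on the same strand and 49 on the opposite strand, and the tables listed 0 of the former and 49 of the latter. Of the 49, 47 did not pass the minimum in both tables, 18 were at 0 in both, and the highest baseMean of the 47 in the PABPN table was 20.4. The other 2 were FLRT3, an adhesion protein gene inside MACROD2, and MAB21L1, a developmental gene inside NBEA. FLRT3 (baseMean 97.3 with PABPN, 87.3 with PABPC) had a PABPN value of 0.0095 (SE 0.261) and a PABPC value of 0.15 (SE 0.256). MAB21L1 (baseMean 55.5 in both) was at 0.58 (SE 0.346) and 0.93 (SE 0.358). FLRT3 and MAB21L1 did not share the low PABPC values of the genes around them, which were -4.49 for MACROD2 and -2.99 for NBEA. Among the 47 others, PABPC values ran from -4.18 (SE 1.49) for ENSG00000260733 inside WWOX to 2.79 (SE 1.22) for NPM1P8 inside DMD. With so few reads these do not show whether nested genes follow the gene around them. Stretches where other genes of the reference, on either strand, overlap made up 0.104 to 11.8% of the span of the 9 genes. The share left out of the authors' annotation was not worked out.

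Among the 5 genes whose pair of fold changes lay nearest to that of LRP1B were the long non-coding RNA genes LINC01950, MIR181A1HG and LINC01611 and the pseudogene SRGAP2D, at Euclidean distances of 0.158 to 0.291 over both log2 fold changes. With PABPN, LINC01950 (195.9 kb) was at -0.13 (SE 0.212), and its PABPC value was -5.08 (SE 0.544). MIR181A1HG (159.6 kb) was at -0.16 (SE 0.109) and -5.06 (SE 0.184). The likeness rests on 2 values per gene.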

How the data were processed

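RNA of 3 PABPN RIP, 3 PABPC RIP and 3 Input RNA samples of HEK293T cells was sequenced in single-end reads of 75 nt. The authors aligned reads to hg38 with STAR and counted them with featureCounts 2.0.2 (minimum overlap 20, versions and tools per the submitters' notes and methods) on an annotation derived from GENCODE release 34 with added NCBI genes, from which stretches shared by overlapping genes were removed, counting introns with exons. Each RIP was tested against input by the authors with DESeq2. The signal column deposited by the authors, baseMean, is the mean of size-factor normalised counts over 6 libraries. Deposited log2 columns give each RIP-to-input fold change with a standard error, the deposited score is the Wald statistic, and the deposited p-value columns give its p (two-sided) before and after Benjamini-Hochberg adjustment. These columns of the authors' comparisons were used because the genes were chosen as rows of these tables and values of single libraries were not analysed here. The last deposited column is an exonic length in bases.

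The tables held 51234 (PABPN) and 51391 (PABPC) rows, of which 123 in each repeated a gene and were dropped. Group means were solved from baseMean and fold change, and the reads on listed genes per library from the values of genes with few reads. Estimated reads on listed genes were 42.7 to 49.2 M for input and 44.7 to 49.1 M for PABPN RIP in the PABPN table, and 42.5 to 49.8 M for input and 36.5 to 52.2 M for PABPC RIP in the PABPC table. The input means of the 9 genes differed between the tables by a constant -0.23 on the log2 scale (SD 0.000794). Calls required an adjusted p of at most 0.01, a log2 change beyond 0.5 and baseMean above 50. The difference of the fold changes was tested with a two-sided normal test with Benjamini-Hochberg adjustment over 14581 genes, and its error, the root of the summed squared standard errors, leaves out the covariance from the shared input. This test was tested on simulated data in which the errors of both fold changes were drawn independently. The simulation therefore did not cover the shared input. Intervals are 95% intervals from the standard errors, which carry the spread between 3 replicates per group. Spans, exons and sequences were taken from GENCODE release 44 on hg38, matched by gene identifier (9 of 9).

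The 9 genes, the relatives, the other fragile site genes and the 5 genes nearest to LRP1B were to be named in the text, and some of them are not reported here. The genes and lists were chosen with earlier results of these data known. Alternatives were baseMean minimums of 10 and 200, a log2 cut-off of 1, an adjusted p of 0.05, a test against 0.5 and centring on all or on protein coding genes. Python 3.11.15, pandas 2.3.3 and scipy 1.17.1 were used.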

Additional observations from a re-analysis of the deposited data

How the results depend on the processing

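Every gene of the set kept the direction of its PABPC change and of its difference under all alternatives run. The count of 9 depleted genes with PABPC and of 9 genes higher with PABPN became 8 with a log2 cut-off of 1, and the latter also became 8 with a test against 0.5, DMD being lost each time. Centring on the median of all genes moved the other fragile site genes to 0 depleted with PABPN and to medians of -3.85 with PABPC and 3.56 for the difference, the relatives to -0.94 and 1.02, and the genes of 500 kb or more to 12 depleted with PABPN and to -3.27 and 3.02. For the genes of 500 kb or more, a baseMean minimum of 10 gave a PABPC median of -2.97 and a minimum of 200 gave 2 enriched with PABPN. Of 181 recomputed values, 0 reversed direction. Other cut-offs leave the sign of a fold change as it is. Centring shifted PABPC values by only 0.14 or 0.25, against changes of -0.91 or lower in the set, so this outcome is a weak check.

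No paired analysis was possible because the tables hold a single value per gene and comparison and no values per library, and leaving out each replicate was not run for the same reason. Relative counts and introns counted with exons limit all values to shares of spliced and unspliced RNA together, and the cause of each shift above was not tested.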
